A study of Mus musculus with 6 samples.

Results

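Mitochondrial ribosomal protein genes, recognised by a symbol that begins with Mrpl or Mrps and a number, were followed in haematopoietic stem cells (HSC) of Lig4mut and wild-type mice. The platform annotation gave 76 such genes among 18193 named genes, 47 of the large subunit by name and 29 of the small subunit, measured by 156 of 45101 probe sets. The rule used symbols and no measured value. Mrpl30 and Mrpl53 appear in the annotation only in probe sets shared with another gene and were not analysed here. The HSC were sorted as CD150+ CD48- KSL cells from the bone marrow of Lig4mut animals and their wild-type (WT, Lig4+/+) littermates, both from crosses of Lig4mut/+ parents and 6 to 8 weeks old, and RNA of 3 biological replicates per genotype was hybridised to 1-colour Affymetrix mouse arrays. Lig4 encodes DNA ligase IV, which seals broken chromosome ends, and the study concerns its role in keeping up the HSC pool. The sources used here do not say what the Lig4mut allele changes, or how many mice gave each replicate, so the p-values measure only the spread between these samples.

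Mitochondria keep a small genome whose messenger RNAs encode core subunits of the respiratory chain and of ATP synthase. These are translated inside the organelle by a ribosome of its own, the mitoribosome, whose ribosomal RNAs come from mitochondrial DNA while every ribosomal protein is encoded in the nucleus, made in the cytosol and imported. Some of these proteins descend from bacterial ribosomal proteins, and others are found only in mitochondria. Quiescent HSC are known to rest largely on glycolysis and to raise mitochondrial activity when they enter division.

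Values below are log2 levels after quantile normalization, and differences are Lig4mut minus WT on that scale with the standard error (SE) of limma. Lig4 itself stood at 4.97, 3.16 and 3.10 in Lig4mut replicates 1, 2 and 3, against 7.53, 6.66 and 7.63 in WT, with no overlap (-3.53 ± 0.61 SE, limma, adjusted p = 0.13). In such bulk samples fewer cells of a type and less RNA per cell cannot be told apart. Kit and Slamf1, which encodes CD150, were above the floor of 3 on all 6 arrays, and the mean level of 12 measured stem cell genes was 9.60 to 10.35 in Lig4mut and 10.62 to 10.78 in WT. The mean of 12 granulocyte genes was 10.57 in Lig4mut replicate 2, against 6.08 and 6.74 in the other Lig4mut arrays and 7.29 to 8.20 in WT, with none of the 12 at the floor on any array. The mean of 12 macrophage and dendritic cell genes was 6.86 to 7.69 in Lig4mut and 6.02 to 6.50 in WT, and that of 10 B cell genes 6.50 to 6.94 in Lig4mut and 5.94 to 6.19 in WT, without overlap in either list. The means of 6 endothelial genes (9.35 to 10.48 in Lig4mut, 8.03 to 9.62 in WT), 7 T cell genes (5.13 to 5.70 in Lig4mut, 4.78 to 5.44 in WT), 7 megakaryocyte genes (7.06 to 8.04 in Lig4mut, 6.89 to 7.43 in WT) and 8 erythroid genes (5.75 to 5.84 in Lig4mut, 5.58 to 5.96 in WT) overlapped. Xist was high and the Y-linked genes low in Lig4mut replicate 2 and in WT replicate 3, so the sexes were mixed within each genotype. The part of these differences in the results below was not tested, other than by leaving out each array and by a fit with the Y-linked level.

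The mean levels of 56 of the 76 mitochondrial ribosomal protein genes differed by less than 0.5 between Lig4mut and WT HSC. Of the 76, none passed the adjusted threshold of 0.05 (limma, smallest adjusted p = 0.13), as against 2 of all 18193 genes, or 0.011%. At an unadjusted p under 0.05, 8 members had higher and 1 had lower values in Lig4mut. These are 10.5% and 1.32% of the members, against 15.5% and 4.18% of all genes. Of the 76, 44 lay above and 32 below 0, against 62.9% of all genes above 0. The members' median difference was 0.06 and lay below the median of all genes, 0.18, a direction that turned under each of the other scalings. The members' median was 0.060 in the values as deposited, against 0.019 for all genes, 0.37 with arrays centred on their medians, against 0.33, and 0.15 with cyclic loess, against 0.094. As deposited, 6 members (7.89%) were higher and 2 (2.63%) lower at an unadjusted p under 0.05, against 6.71% and 5.44% of all genes. With median centring 12 (15.8%) were higher and 0 lower, against 18.4% and 2.6%, and 64 of the 76 lay above 0, against 72.9% of all genes. Without Lig4mut replicate 2, the array with the high granulocyte genes, 3 members (3.95%) were higher at that level, against 14.3% of all genes. There were 4 (5.26%) without WT replicate 3, against 11.4%, and 5 (6.58%) without WT replicate 2, against 9.67%. Without WT replicate 1 there were 6 (7.89%). That fit had 2428 of all 18193 genes at that level in either direction, and 561 of these genes were lower. The range over every array left out, which reaches higher counts, is given in the last section. On the lower side Mrpl23, the 1 gene there, was not called without any 1 of the 3 WT arrays, in fits that called 2.98% to 3.12% of all genes lower (3.08% without WT replicate 1).

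The precision of single genes differed widely. For 56 of the 76 the estimated difference was under 0.5 in size, but the 95% interval of limma stayed within a 2-fold change in either direction (1 on the log2 scale) for 28. The narrowest interval was that of Mrpl17, a counterpart of a bacterial large-subunit protein, with levels of 10.53, 10.66 and 10.49 in Lig4mut and 10.64, 10.32 and 10.52 in WT (difference 0.06, interval -0.30 to 0.43). Mrpl52, a large-subunit protein found in mitochondria only, was at 12.43, 12.66 and 12.77 in Lig4mut and 12.41, 12.51 and 12.67 in WT (0.09, interval -0.31 to 0.48). The arrays of the genotypes overlapped for both genes, which were picked after the values were seen for narrow intervals around 0. For 36 members the interval still allowed a 2-fold higher level in Lig4mut, and for 26 a 2-fold lower one.

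**Figure D1:**
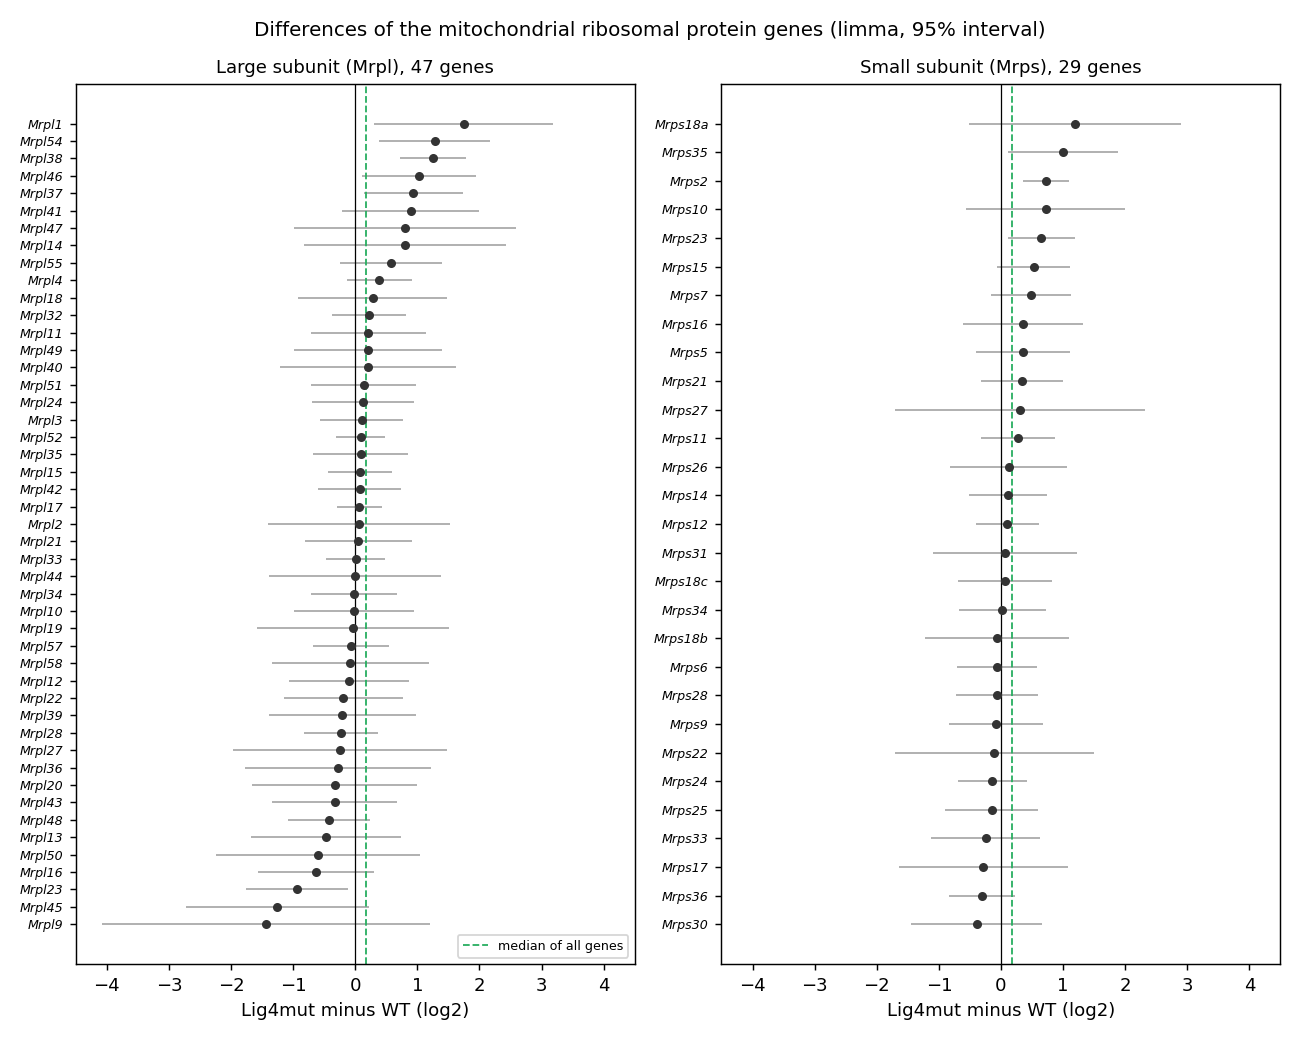
Difference between Lig4mut and WT HSC for each of the 76 genes, by subunit name, with the point at the estimate and the line at the 95% interval of limma (log2). The dashed line is the median of all genes, 0.18; the estimates run from -1.44 for Mrpl9 to 1.75 for Mrpl1 and most intervals cross 0.

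Of the 47 large-subunit genes, 5 (10.6%) were higher and 1 (2.13%) lower at an unadjusted p under 0.05, with a median of 0.06. Of the 29 named for the small subunit, 3 (10.3%) were higher and none lower, with a median of 0.10, against 15.5% higher and 4.18% lower of all genes. Whether the subunits differ was not tested. The mean level of the large-subunit genes was 9.51, 9.66 and 9.34 in Lig4mut replicates 1, 2 and 3, and 9.46, 9.44 and 9.36 in those of WT. For the small-subunit genes it was 9.48, 9.65 and 9.27 in Lig4mut and 9.20, 9.39 and 9.25 in WT. Both sets thus had their highest mean on Lig4mut replicate 2, and the genotypes overlapped in both. That array held the highest value of 25 of the 76 genes, and Lig4mut replicate 3 the lowest value of 20. Against the range of the WT arrays, 27 members lay above it and 15 below it on Lig4mut replicate 1 (35.5% and 19.7%), against 43.0% and 22.3% of all genes. On Lig4mut replicate 2, 35 lay above and 16 below (46.1% and 21.1%), against 44.9% and 25% of all genes. On Lig4mut replicate 3, 22 lay above and 26 below (28.9% and 34.2%), against 44.9% and 24.0% of all genes.

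**Figure D2:**
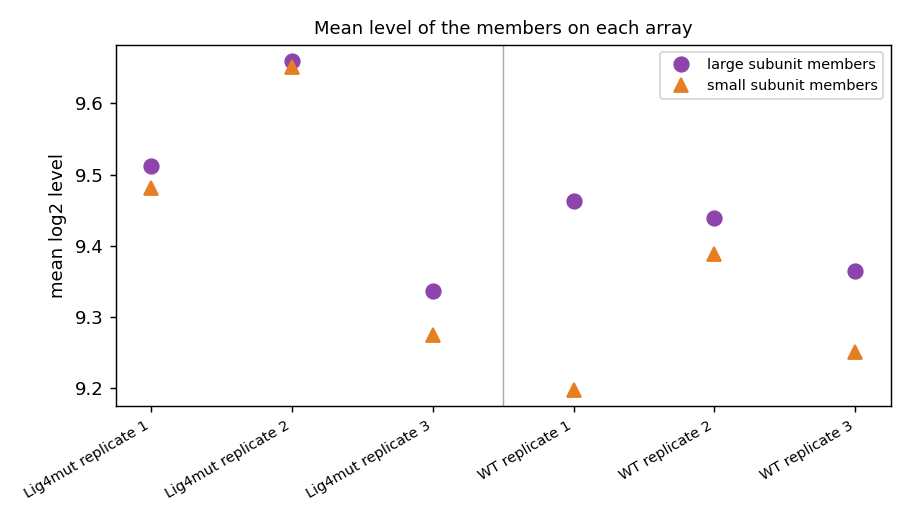
Mean log2 level of the 47 large-subunit and the 29 small-subunit genes on each array. Lig4mut replicate 2 has the highest mean of both sets, 9.66 and 9.65, while Lig4mut replicate 3 lies at 9.34 and 9.27, within or near the WT arrays.

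The clearest single values were those of Mrpl38 and Mrps2, which are given as values since neither passed the threshold. Mrpl38, a large-subunit protein without a bacterial counterpart, had levels of 8.14, 7.97 and 8.63 in Lig4mut and 6.89, 7.01 and 7.09 in WT. All Lig4mut arrays lay above all WT arrays, with a difference of 1.25 ± 0.21 SE, or 2.38-fold (limma, adjusted p = 0.13). Its other probe sets were also higher on average, by 0.85 and 0.54. Mrps2, whose bacterial counterpart sits in the small subunit, was at 10.56, 10.40 and 10.22 in Lig4mut and at 9.73, 9.72 and 9.56 in WT. These arrays did not overlap either, with 0.73 ± 0.15 SE, or 1.65-fold (limma, adjusted p = 0.138), and 0.49 in its second probe set. Leaving out any 1 array kept Mrpl38 between 1.06 and 1.39 and Mrps2 between 0.64 and 0.81.

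Other large-subunit genes with higher values were less even between arrays. Mrpl1, whose bacterial counterpart forms a mobile stalk of the large subunit, was at 10.79, 11.27 and 9.22 in Lig4mut and 8.82, 8.85 and 8.39 in WT. It had the largest positive difference of the 76 genes, 1.75 ± 0.57 SE or 3.35-fold (limma, adjusted p = 0.2), and Lig4mut replicate 3 lay nearest to WT. The other probe sets of Mrpl1 gave 0.58 and 0.65. Mrpl54, found in mitochondria only, was at 8.68, 9.57 and 8.93 in Lig4mut and 7.24, 7.97 and 8.14 in WT, with 1.28 ± 0.35 SE (limma, adjusted p = 0.167). Its second probe set went the other way, by -0.55, so that the mean over both was 0.36. Mrpl37 had 9.02, 9.44 and 8.36 in Lig4mut against 7.96, 8.21 and 7.83 in WT, and Mrpl46 had 8.97, 9.12 and 9.38 in Lig4mut against 8.85, 7.60 and 7.94 in WT. Both are mitochondrial additions to the large subunit, and in both the genotypes were apart by a narrow margin (differences 0.94 ± 0.31 and 1.03 ± 0.36 SE). Mrpl41 and Mrpl4 followed with 0.90 ± 0.43 and 0.39 ± 0.21. The arrays of Mrpl4, a counterpart of a bacterial protein that lines the exit tunnel, were apart, at 9.99 to 10.21 in Lig4mut and 9.37 to 9.94 in WT. Mrpl41 overlapped, with 1 of 3 probe sets lower and a mean over them of 0.15.

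On the small-subunit side, Mrps23 and Mrps35, both found in mitochondria and not in bacteria, were also higher at an unadjusted p under 0.05. Mrps23 stood at 7.64, 8.03 and 7.74 in Lig4mut and 7.32, 6.81 and 7.33 in WT (0.65 ± 0.21 SE), and all 3 of its probe sets were higher. Mrps35 stood at 9.16, 9.87 and 9.79 in Lig4mut and 8.24, 9.21 and 8.37 in WT (1.00 ± 0.35 SE). The lowest Lig4mut array of Mrps35 lay just under the highest WT array. Mrps15, a counterpart of a bacterial protein, was apart at 9.72 to 10.45 in Lig4mut and 9.33 to 9.63 in WT (0.52 ± 0.23 SE), with all 3 probe sets higher. Mrps7, which also has a bacterial counterpart, overlapped at 9.76 to 10.44 in Lig4mut and 9.28 to 9.85 in WT (0.48 ± 0.25 SE). In all, 9 members had their Lig4mut arrays entirely above the WT arrays, 11.8% of them against 21.0% of all genes.

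**Figure D3:**
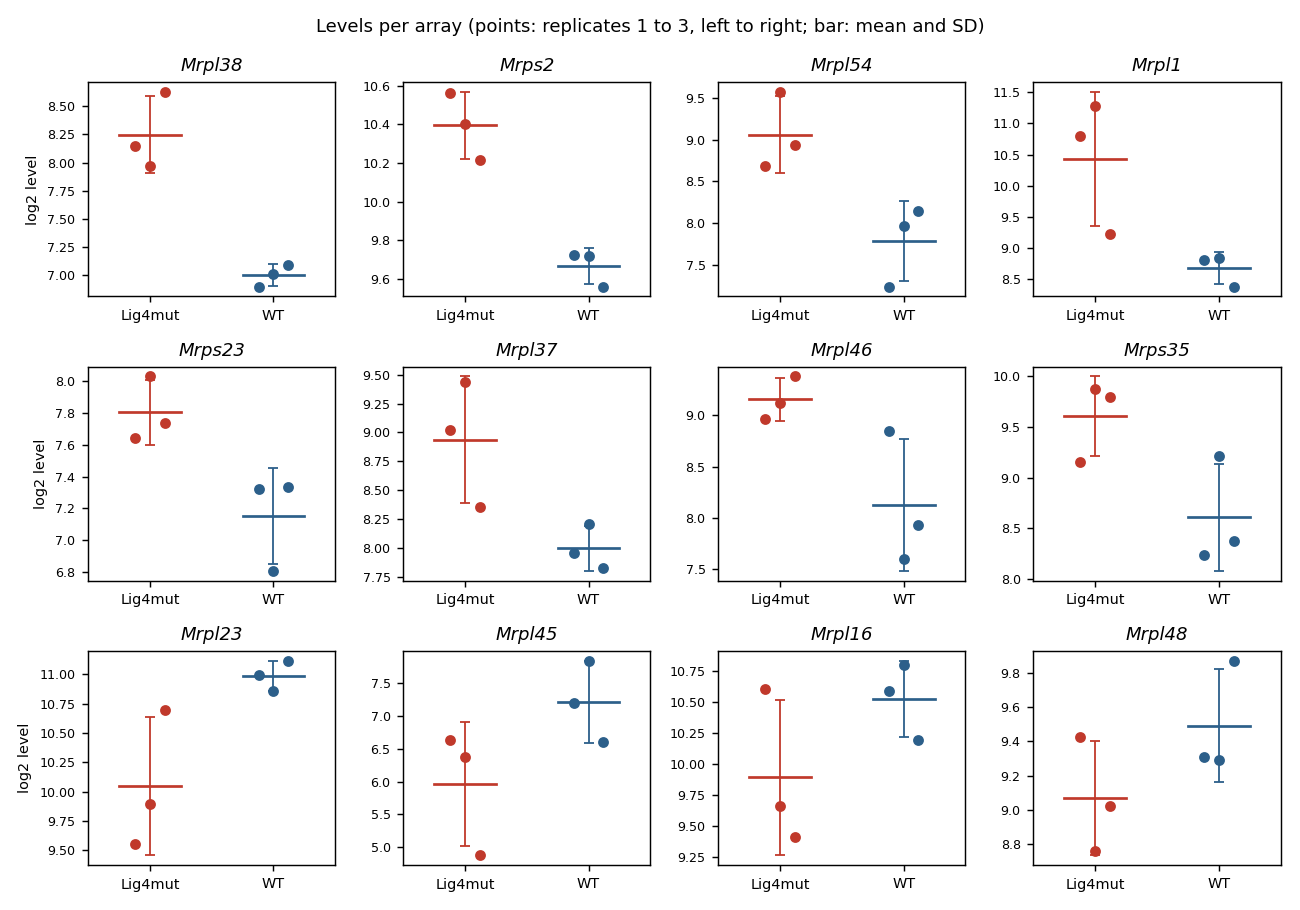
Log2 level per array of the 8 members with the smallest p among the higher ones and the 4 with the smallest p among the lower ones, Lig4mut in red and WT in blue, with the mean and SD of 3 arrays. The genotypes do not overlap for Mrpl38, Mrps2, Mrpl54, Mrpl1, Mrps23, Mrpl37, Mrpl46 and Mrpl23, and each panel has its own scale.

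In the probe sets that stand for the genes, Mrpl23 was the single member whose Lig4mut arrays all lay below the WT arrays, 1.32% against 5.65% of all genes. Its bacterial counterpart lies at the mouth of the exit tunnel, where the new chain leaves the large subunit. It had 9.55, 9.90 and 10.70 in Lig4mut and 10.99, 10.86 and 11.11 in WT, a difference of -0.94 ± 0.32 SE (limma, adjusted p = 0.213), and 1 probe set. Mrpl45, which holds the mitoribosome to the inner membrane, was at 6.63, 6.37 and 4.88 in Lig4mut and 7.19, 7.84 and 6.60 in WT (-1.25 ± 0.58 SE). The genotypes overlapped by a small margin, and the value was -0.71 without Lig4mut replicate 3, the lowest array. Mrpl16, whose bacterial counterpart lies near the peptidyl transferase centre, had 10.60, 9.66 and 9.42 in Lig4mut and 10.59, 10.80 and 10.19 in WT (-0.63 ± 0.37 SE), so Lig4mut replicate 1 was at the WT level. Of the 12 members below 0 with the smallest p, the other 8 after these and Mrpl9, namely Mrpl48, Mrps36, Mrpl13, Mrpl28, Mrps30, Mrpl50, Mrpl43 and Mrps33, had differences between -0.60 and -0.22. All of them overlapped in the probe set that stands for the gene. Of these, Mrps36 is now placed in the α-ketoglutarate dehydrogenase complex and not in the ribosome, and the human protein of Mrps30 lies in the large subunit despite its name. Without Mrps36 the median over the other 75 genes was 0.06.

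The largest negative estimate rested on the spread between the Lig4mut arrays. Mrpl9, a counterpart of a bacterial large-subunit protein, was at 10.60, 6.54 and 8.53 in Lig4mut and 10.18, 9.68 and 10.13 in WT. Its difference of -1.44 ± 1.04 SE was -0.43 without Lig4mut replicate 2 and -2.46 without Lig4mut replicate 1. All 3 probe sets of Mrpl9 were lowest on Lig4mut replicate 2, at 5.03, 6.17 and 6.54. On average over the arrays 1 of the 3 was higher in Lig4mut, by 0.47, and the mean over them was -0.69. Mrps27, which belongs to the RNA-binding pentatricopeptide repeat family and was picked for its spread, had 10.03, 8.88 and 6.96 in Lig4mut and 8.38, 8.26 and 8.33 in WT. Over the 76 genes the median SD was 0.476 between Lig4mut arrays and 0.312 between WT arrays, and 56 genes (73.7%) varied more in Lig4mut. Among all genes the median SD was 0.452 in Lig4mut and 0.283 in WT, and 69.9% varied more in Lig4mut.

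The paralogues Mrps18a, Mrps18b and Mrps18c derive from the same bacterial protein, and in the human mitoribosome each takes a different position, that of Mrps18a in the large subunit. Mrps18a had 9.60, 10.78 and 8.25 in Lig4mut and 8.00, 8.66 and 8.38 in WT. Its arrays overlapped, with a difference of 1.19 ± 0.67 SE that was 0.57 without Lig4mut replicate 2 and 1.84 without Lig4mut replicate 3. Mrps18b was at 9.19, 9.79 and 9.84 in Lig4mut and 10.08, 10.19 and 8.75 in WT (-0.06 ± 0.46). Mrps18c was at 10.35, 10.80 and 10.06 in Lig4mut and 9.90, 10.43 and 10.70 in WT (0.06 ± 0.30). The estimates of Mrps18b and Mrps18c changed sign with the scaling or with an array left out, and whether the 3 paralogues differ from each other was not tested.

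Several probe sets of a gene often disagreed in direction. Of the 42 members with more than 1 probe set, all probe sets were higher in Lig4mut for 11, all lower for 4, and they went both ways for 27. Over the 156 probe sets 88 were above and 68 below 0, with a median of 0.06 against 0.08 for all probe sets that name 1 gene. At an unadjusted p under 0.05 15 of the 156 (9.62%) were higher and 6 (3.85%) lower, against 12.2% and 5.3% of all such probe sets, and none passed the adjusted threshold, against 0.00286% of all such probe sets. Over the 156 probe sets 17 lay entirely above WT and 7 entirely below, and the shares of all probe sets are not given. Besides that of Mrpl23, the lower ones were further probe sets of Mrpl19, Mrpl48, Mrpl51, Mrps9, Mrps14 and Mrps25. Their differences ran from -1.94 for Mrps9 to -0.51 for Mrps14. Of the probe sets that stand for a gene, 9 carry an Affymetrix suffix for probes shared with other transcripts, those of Mrpl38, Mrpl37, Mrpl9 and Mrpl48 among them.

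Promoter sequences of RefSeq on GRCm38.p6 were found for 67 of the 76 genes, in 73 windows, of which the 250 bases before the start were read. Mrpl38, Mrpl54, Mrps35, Mrpl4 and Mrpl13 are among the 9 genes with no entry. The 3 motifs searched on both strands were GCGCANGCG for NRF1, CCGGAAG for ETS factors such as GABP, and AAGATGGCG for YY1, factors known from mammals to act on many nuclear genes of mitochondria. The NRF1 letters were in 16.4% of the members' windows and 5.16% of all windows of that length, the ETS letters in 23.3% and 6.91%, and the YY1 letters in 2.74% and 0.606%. All windows are the 32851 of 27025 genes, which include genes not measured here. The median GC content was 58.4% in the members' windows and 52.4% in all. A match is a description of letters and not of a bound site. The windows of 6 members are printed because the results above turn on these genes: Mrps2, Mrpl1 and Mrps18a on the higher side, and Mrpl23, Mrpl45 and Mrpl9, the 3 with the lowest differences. Each is written 5′ to 3′ on GRCm38.p6, with capitals for a motif.
Mrps2, chr2:28467816-28468065 (plus strand): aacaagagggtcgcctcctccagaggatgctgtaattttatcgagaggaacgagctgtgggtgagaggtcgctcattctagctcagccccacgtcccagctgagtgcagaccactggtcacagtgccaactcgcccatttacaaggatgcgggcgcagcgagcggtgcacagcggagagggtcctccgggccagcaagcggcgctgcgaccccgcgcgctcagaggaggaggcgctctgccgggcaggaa
Mrpl1, chr5:96209865-96210114 (plus strand): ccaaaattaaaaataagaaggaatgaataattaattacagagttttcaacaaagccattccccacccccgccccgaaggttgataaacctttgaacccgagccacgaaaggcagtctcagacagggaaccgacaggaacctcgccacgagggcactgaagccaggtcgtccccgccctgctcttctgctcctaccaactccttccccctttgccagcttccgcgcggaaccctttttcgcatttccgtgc
Mrps18a, chr17:46110754-46111003 (plus strand): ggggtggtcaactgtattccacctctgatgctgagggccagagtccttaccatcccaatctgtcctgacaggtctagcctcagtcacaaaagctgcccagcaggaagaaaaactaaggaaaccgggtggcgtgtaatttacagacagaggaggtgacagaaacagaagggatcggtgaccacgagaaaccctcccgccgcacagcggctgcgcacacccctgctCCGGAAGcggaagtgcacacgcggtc
Mrpl23, chr7:142532782-142533031 (plus strand): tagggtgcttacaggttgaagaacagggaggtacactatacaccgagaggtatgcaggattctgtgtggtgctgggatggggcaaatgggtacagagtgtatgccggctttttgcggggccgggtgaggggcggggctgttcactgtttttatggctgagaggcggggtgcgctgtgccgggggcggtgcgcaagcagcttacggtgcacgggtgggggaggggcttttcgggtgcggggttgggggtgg
Mrpl45, chr11:97315466-97315715 (plus strand): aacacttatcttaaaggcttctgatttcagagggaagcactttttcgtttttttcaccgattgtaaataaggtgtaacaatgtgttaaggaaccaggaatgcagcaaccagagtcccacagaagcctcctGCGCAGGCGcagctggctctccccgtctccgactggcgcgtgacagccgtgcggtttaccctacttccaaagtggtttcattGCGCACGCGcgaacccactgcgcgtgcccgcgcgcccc
Mrpl9, chr3:94443086-94443335 (plus strand): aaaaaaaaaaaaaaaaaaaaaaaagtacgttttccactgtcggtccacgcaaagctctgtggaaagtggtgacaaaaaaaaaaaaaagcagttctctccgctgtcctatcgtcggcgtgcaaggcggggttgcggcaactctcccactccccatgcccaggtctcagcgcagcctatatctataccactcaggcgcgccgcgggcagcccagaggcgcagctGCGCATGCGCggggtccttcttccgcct
The windows of Mrps2, Mrpl1 and Mrpl23 hold none of the motifs. That of Mrps18a has the ETS letters 26 bases before the start, that of Mrpl45 the NRF1 letters 120 and 38 bases before it, and that of Mrpl9 the same letters on both strands at 28 and 27 bases, which overlap. Of the 12 members with the NRF1 letters 9 were below 0, with a median difference of -0.07, against 20 of 55 members without them and a median of 0.09. Of the 17 with the ETS letters 7 were below 0 (median 0.06), against 22 of 50 without them (median 0.06). Whether members with and without a motif differ was not tested, and other genes with these letters were not compared. The side of 0 also depends on the scaling, with 44 of the 76 members above 0 here and 64 with median centring. The NRF1 letters had been shortened after longer forms were counted.

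Many of the members start next to a gene on the other strand. Such a neighbour, with its start at most 1000 bases upstream in the opposite direction, was found for 25 of the 67 genes (37.3%). The share was 12.3% of the 27025 genes with a promoter entry, which include genes not measured here. Mrpl46 and Mrps11, a large-subunit and a small-subunit gene, face each other in this way, and the bases that lie between their starts are shown as the stretch common to both promoters.
Mrpl46 and Mrps11, chr7:78783090-78783130 (plus strand): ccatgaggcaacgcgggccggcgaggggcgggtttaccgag
This stretch is 41 bases long. Mrpl46 had the values given above, and Mrps11 was at 8.96, 8.45 and 8.27 in Lig4mut and 8.06, 8.46 and 8.34 in WT, which overlapped (0.27 ± 0.24 SE; its probe sets averaged -0.27). Other neighbours also serve mitochondria. Twnk, the mitochondrial DNA helicase next to Mrpl43, had 9.20, 8.69 and 8.78 in Lig4mut and 8.83, 8.60 and 8.75 in WT. Sars2, the mitochondrial seryl-tRNA synthetase next to Mrps12, had 6.95, 7.73 and 7.07 in Lig4mut and 7.19, 7.01 and 5.98 in WT. Ptcd2, an RNA-binding protein gene next to Mrps27, had 9.21, 7.76 and 8.29 in Lig4mut and 7.16, 7.97 and 8.12 in WT, and Ndufb5, a complex I subunit gene next to Mrpl47, had 11.27 to 11.69 in Lig4mut and 11.55 to 11.68 in WT. These pairs were picked after the values were seen, and all 4 neighbours overlapped between the genotypes. In 16 of the 25 pairs, with Mrpl46 and Mrps11 counted from each side, both genes had differences of the same sign (64.0%). The share was 55.3% of the 1684 such pairs in which both genes were measured.

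Of 4 measured mitoribosomal proteins that carry other names, Chchd1, Gadd45gip1 and Dap3 had differences between -0.01 and 0.16. Ptcd3, a pentatricopeptide repeat protein of the small subunit, had 7.36 to 9.13 in Lig4mut, lowest on replicate 3, and 10.19 to 10.57 in WT. These did not overlap, with a difference of -1.91 ± 0.52 SE (limma, adjusted p = 0.164), while its second probe set was higher and the mean over both was -0.88. Among 25 factors that assemble the mitoribosome or modify its RNA, 5 (20.0%) were higher at an unadjusted p under 0.05 and none lower, with a median of 0.32, against 15.5% and a median of 0.18 for all genes. Gtpbp6, a GTPase of late assembly and recycling, was at 8.49, 8.62 and 8.73 in Lig4mut and 7.77, 7.95 and 7.66 in WT (0.82 ± 0.15 SE). Rbfa, which acts on the small subunit, was at 10.29, 10.48 and 10.20 in Lig4mut and 9.81, 9.70 and 9.57 in WT (0.63 ± 0.14 SE). Mrm2, a methyltransferase of the large ribosomal RNA, differed by 0.90 ± 0.32 SE. For these 3 genes the Lig4mut arrays all lay above WT, and none passed the threshold (limma, adjusted p = 0.132 to 0.223).

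The lists for making mitochondrial RNA and keeping mitochondrial DNA had medians below 0. Of 20 genes of mitochondrial transcription and RNA processing 14 were below 0, 2 lower and 1 higher at an unadjusted p under 0.05, with a median of -0.34. Of all genes 37.1% were below 0, 4.18% lower and 15.5% higher at that level, and these shares serve for the lists that follow. Prorp, the nuclease of mitochondrial RNase P, had 7.84, 8.23 and 7.91 in Lig4mut and 8.99, 8.47 and 8.89 in WT (-0.79 ± 0.21 SE), and the poly(A) polymerase gene Mtpap differed by -0.82 ± 0.28. Trmt10c, which encodes another subunit of that RNase P, went the other way, with 9.20, 7.41 and 9.02 in Lig4mut and 6.38, 6.78 and 7.42 in WT (1.68 ± 0.58 SE). Of 11 genes that maintain mitochondrial DNA 7 were below 0, 1 at an unadjusted p under 0.05, with a median of -0.62. That gene was Lig3, the DNA ligase of mitochondria, at 8.54 ± 0.45 in Lig4mut and 9.31 ± 0.22 in WT (SD, n = 3 each), with no overlap (-0.77 ± 0.28 SE, and -0.29 over its 5 probe sets). Tk2 differed by -1.21 ± 0.49 and Top1mt by 0.49 ± 0.27.

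Translation factors and tRNA synthetases of mitochondria had medians near 0. Of 15 translation factors 1 was higher and none lower at that level (median 0.05). Tsfm, the elongation factor Ts, differed by 1.67 ± 0.64 SE with its probe sets in both directions, the formyltransferase Mtfmt by -0.68 ± 0.27 and the initiation factor Mtif2 by -0.42 ± 0.23. Of 19 synthetase genes 1 was higher and none lower (median 0.01). That was Aars2, for alanine, at 8.99, 9.54 and 9.47 in Lig4mut and 8.74, 8.21 and 8.42 in WT (0.87 ± 0.23 SE), while Yars2 and Wars2 differed by 0.71 ± 0.36 and 1.15 ± 0.59. Of 24 protein import genes 1 was higher and none lower (median -0.20), and of 10 transcriptional regulators of nuclear mitochondrial genes none passed on either side (median -0.26, 8 of 10 below 0). None of these genes passed the adjusted threshold. The import genes had a median level of 9.92 and the regulators one of 9.18. All genes at levels from 9 to 10 had a median difference of -0.15, near the medians of these 2 lists. The median level was 8.07 for transcription and RNA processing, 8.16 for DNA maintenance and 8.38 for the assembly factors. All genes at levels from 8 to 9 had a median difference of 0.03, against -0.34, -0.62 and 0.32 in those lists. The 82 nuclear subunits of oxidative phosphorylation had a median of 0.08, with 5 (6.10%) higher and none lower, against 15.5% and 4.18% of all genes, and the 49 cytosolic ribosomal proteins one of -0.03, with 2 (4.08%) higher and 1 (2.04%) lower. The cytosolic genes varied less, with a median SD of 0.079 between Lig4mut arrays and 0.059 between WT arrays. Their median level was 12.82, against 9.43 for the 76 members, and the part of level in this spread was not tested.

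**Figure D4:**
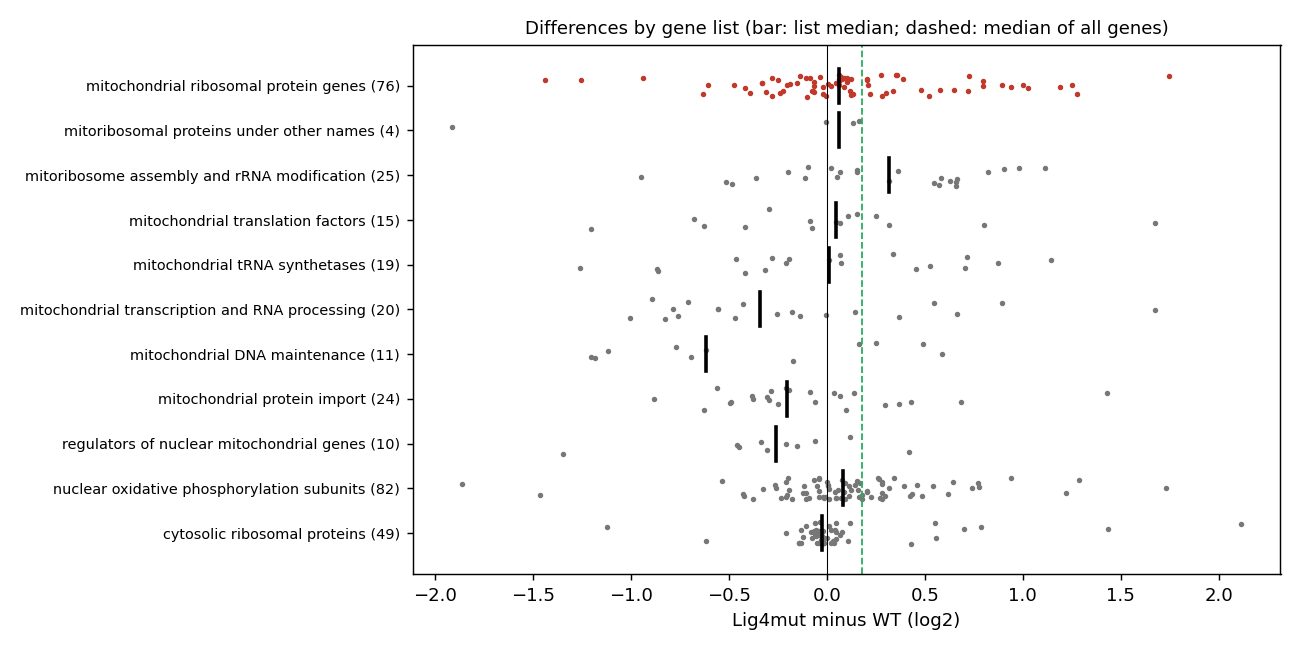
Differences between Lig4mut and WT HSC (log2) of each gene in the lists, with the number of measured genes in brackets, the list median as a bar and the median of all genes, 0.18, as the dashed line. The 76 mitochondrial ribosomal protein genes, in red, centre on 0.06, the assembly factors on 0.32 and the genes of mitochondrial DNA maintenance on -0.62.

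The level of the genes bears on how the members compare with the others. All 76 lay at or above the 40th percentile of mean level. In this normalization the median difference of all genes was 0.46 at levels from 6 to 7, 0.03 at levels from 8 to 9 and -0.15 at levels from 9 to 10, and 20 members lay between 8 and 9 and 29 between 9 and 10. Against the 10916 genes at or above that percentile the members' median lay 0.03 higher, not 0.11 lower. Of those genes 51.8% lay above 0, against 57.9% of the members. Their Lig4mut arrays lay entirely above WT in 14.2% and entirely below in 7.40%, against 11.8% and 1.32% of the members. At an unadjusted p under 0.05, with dim genes left out of the fit, 7 members (9.21%) were higher and 1 lower, against 8.91% and 4.36% of those genes, and none passed the adjusted threshold, as did none of those genes (0%).

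**Figure D5:**
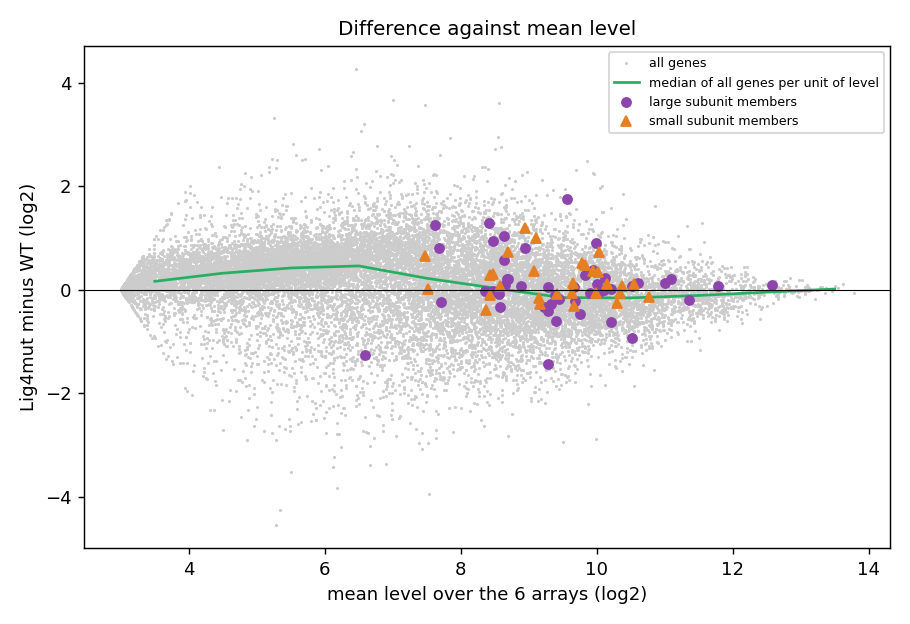
Difference between Lig4mut and WT (log2) against the mean level over the 6 arrays (log2) for all genes in grey, with the median of all genes per unit of level as a line and the members as circles (large subunit) and triangles (small subunit). The line falls from 0.46 at levels of 6 to 7 to -0.15 at levels of 9 to 10, and the members scatter around it and 0.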

How the data were processed

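The authors deposited 1 log2 value per probe set and array. RMA is the method in the submitters' processing notes, and no source here gives the origin of a floor at exactly 3. Precision is limited by the number of arrays, 3 per genotype. Deposited medians were 5.97 to 6.05 in Lig4mut and 6.29 to 6.34 in WT, so the values were quantile normalized over the 6 arrays. Of 45101 probe sets 64 are controls, 34945 name 1 gene in GEO's platform annotation, 932 name several and 9160 none. Symbols of 34741 were taken by gene identifier from NCBI's table for GRCm38.p6, whether or not they differed from the annotation. Each of 18193 genes was represented by its probe set with the highest mean. The 2 genotypes were compared in limma 3.58.1 under R 4.3.3 by lmFit and eBayes, two-sided. Benjamini-Hochberg adjustment ran across the 18193 genes, with 0.05 as threshold. An exact permutation test of 3 arrays against 3 cannot go below 0.1 and was not run. The fit was tested on simulated data.

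Named genes are Lig4, the 12 lower and 12 higher members with the smallest p, Mrps18a, Mrps18b and Mrps18c, and up to 3 genes with the smallest p of each list of the mitoribosome and mitochondrial gene expression. Mrps27, Mrpl17, Mrpl52, Mrps11 and the neighbours of members were picked with their values known. The letters of the NRF1 and YY1 motifs were shortened after longer forms had been counted. The members and lists were chosen with earlier results of these data known. The replicate numbers in the labels were not taken as pairs, since deviations of same-numbered arrays correlated at -0.03 to 0.04. Alternatives were the values as deposited, median centring, cyclic loess, a filter on dim genes under the 40th percentile, the mean of probe sets, every probe set, weights per array, robust moderation on a variance trend, a replicate block, the Y-linked level and leaving out each array.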

Additional observations from a re-analysis of the deposited data

How the results depend on the processing

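Under all 16 alternatives 0 of the 76 members passed the adjusted threshold, with a smallest adjusted p of 0.116 to 0.362. The members' median relative to all genes, -0.11, was 0.042 in the values as deposited and with median centring, 0.054 with cyclic loess and 0.033 without dim genes. Leaving out 1 array gave -0.13 to -0.05. The members higher at an unadjusted p under 0.05 numbered 3 to 10 with 1 array left out, and those lower 0 to 2. In these fits 2301 to 4096 of all 18193 genes were at that level in either direction. The member counts therefore cannot be compared between fits. On the lower side there were 2 as deposited, with probe sets averaged and with the replicate block, and 0 with median centring and with the Y-linked level. Of all genes 5.44% were lower as deposited and 2.6% with median centring. In either direction the number of all genes was 3795 with probe sets averaged and 3265 with the Y-linked level. The shares of all genes lower are not given for these fits, so their member counts cannot be read against all genes. Members whose arrays lay apart on the higher side numbered 18 with median centring and 11 to 18 with 1 array left out. Apart on the lower side were 2 in the values as deposited and with cyclic loess, 0 with median centring, 3 with the mean of probe sets and 1 to 7 with 1 array left out. Shares of all genes are not given for these settings, so none of these counts can be read as a result about the members. Median centring raised all genes, with 72.9% of them above 0 and a median difference of 0.33. With 1 array left out, 2 arrays separate from 3 more easily, so the counts with an array left out say nothing particular about the members. With the replicate number as a block 6 members were higher and 2 lower at an unadjusted p under 0.05. That fit had 2868 of all genes at this level in either direction. Its shares of all genes higher and lower are not given, so the 6 and the 2 cannot be read against all genes. Same-numbered arrays deviated with correlations of 0.04, 0.01 and -0.03, and not every array correlated best with its own number. Of 862 values of the 54 named genes, 838 kept their direction and 24 changed sign. With median centring Mrpl28 was at 0.10, Mrps18b at 0.26, Mrps33 at 0.091, Mrps36 at 0.0052 and Ndufb5 at 0.16. With the mean of probe sets Mrpl28 was at 0.0044, Mrpl50 at 0.018, Mrps11 at -0.27 and Ndufb5 at 0.034. Gadd45gip1 was at -0.11 as deposited and -0.013 with cyclic loess, and Mrps18b at 0.043 with cyclic loess. With the Y-linked level Mrps18b was at 0.019 and Mrps18c at -0.027. With 1 array left out Gadd45gip1 ranged from -0.12 to 0.30, Mrpl17 from -0.021 to 0.14, Mrps18b from -0.52 to 0.19, Mrps18c from -0.16 to 0.24, Mrps27 from -0.40 to 1.14 and Mrps33 from -0.48 to 0.057. The causes were not tested.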
